A study of Homo sapiens with 5 samples.

Results

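The genes described here are the DNA replication and S phase genes: 50 genes whose products license replication origins, unwind and copy DNA, supply deoxynucleotides, package the new DNA or control entry into S phase. They were chosen by symbol, and 49 of them were found among the 51055 genes of the deposited count table through the symbols of GENCODE release 29. UHRF1, a reader of DNA methylation at the fork, was not matched to a gene identifier and was not analysed here. The 49 genes had between 245 and 19050 counts in each library, and all 49 passed the filter on low counts in every comparison.

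The study sequenced RNA from HL60, an established human promyelocytic leukaemia line, in 5 libraries and 3 groups. The first group was HL60 that had not been transduced (1 library). The second carried the SCR lentivector, the control (2 libraries), which the labels call both scramble and empty. The third carried the ZIP lentivector, whose hairpin RNA gives a full-length antisense to miR-378a-3p (2 libraries). For both vectors the multiplicity of infection was 20, polybrene was at 8 µg/mL, and puromycin at 2 µg/mL was kept on the cells from day 3 to day 8, and both vectors carry green fluorescent protein. The untransduced library had neither virus nor selection as far as the labels say, so in the comparisons with it the vector, the infection and the selection cannot be told apart. The labels leave unsaid if a group's libraries are from different cultures, and p-values measure only the spread between these libraries, which can be technical. In RNA from a whole culture, a smaller share of cells in S phase and less RNA per cell cannot be told apart.

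As background, a cell licenses its origins in G1, when the origin recognition complex, CDC6 and CDT1 load the ring-shaped MCM2-7 helicase onto DNA. In S phase, kinases and firing factors join CDC45 and the GINS complex to that ring, and polymerases alpha, delta and epsilon copy the strands with the help of the PCNA clamp, its RFC loader and the RPA single-strand binding complex. Many of these genes are transcribed at the G1/S transition under E2F factors, which bind sites of the type TTTCGCGC or TTTGGCGC in promoters, and cells that leave the cycle to differentiate turn them down.

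Promoter windows from 250 bases before to 50 bases after a RefSeq transcript start (GRCh38.p14) were available for 42 of the 49 genes. The letters TTTCGCGC, TTTGGCGC, TTTCCCGC or TTTGCCGC, searched on both strands, were found in a window of 21 of these 42 genes (50%). The same letters were in a window of 6.7% of 9890 protein-coding genes tested, and in 3.3% of all 35116 windows. By window, 21 of the 55 windows of these 42 genes held them (38.2%). The windows below belong to the gene that fell most in ZIP against SCR (E2F2), the gene that rose most (POLE2), and 4 subunits of the helicase of which MCM2 and MCM7 rose and MCM3 and MCM6 fell. Each is written 5′ to 3′ on the gene's strand, and capitals mark the matches. Where a match is read from the other strand, the capitals show its reverse complement.
E2F2, chr1:23531184-23531483, minus strand: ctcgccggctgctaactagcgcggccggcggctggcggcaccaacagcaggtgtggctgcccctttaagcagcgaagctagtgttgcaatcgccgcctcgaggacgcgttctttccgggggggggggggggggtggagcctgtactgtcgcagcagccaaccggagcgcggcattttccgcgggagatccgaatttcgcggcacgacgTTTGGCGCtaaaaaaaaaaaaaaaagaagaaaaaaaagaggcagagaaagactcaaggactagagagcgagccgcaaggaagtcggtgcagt
POLE2, chr14:49688165-49688464, minus strand: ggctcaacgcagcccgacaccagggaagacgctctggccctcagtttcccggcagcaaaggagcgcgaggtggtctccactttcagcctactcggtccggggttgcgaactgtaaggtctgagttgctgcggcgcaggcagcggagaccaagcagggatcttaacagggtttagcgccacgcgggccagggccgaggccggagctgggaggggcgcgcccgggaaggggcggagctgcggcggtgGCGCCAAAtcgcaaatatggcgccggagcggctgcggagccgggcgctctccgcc
MCM2, chr3:127598161-127598460, plus strand: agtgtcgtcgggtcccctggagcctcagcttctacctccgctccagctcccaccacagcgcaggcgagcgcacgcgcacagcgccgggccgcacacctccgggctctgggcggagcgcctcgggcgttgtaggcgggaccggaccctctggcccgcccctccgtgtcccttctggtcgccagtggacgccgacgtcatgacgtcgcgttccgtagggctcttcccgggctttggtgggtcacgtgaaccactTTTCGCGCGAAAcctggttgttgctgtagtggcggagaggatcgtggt
MCM7, chr7:100101348-100101647, minus strand: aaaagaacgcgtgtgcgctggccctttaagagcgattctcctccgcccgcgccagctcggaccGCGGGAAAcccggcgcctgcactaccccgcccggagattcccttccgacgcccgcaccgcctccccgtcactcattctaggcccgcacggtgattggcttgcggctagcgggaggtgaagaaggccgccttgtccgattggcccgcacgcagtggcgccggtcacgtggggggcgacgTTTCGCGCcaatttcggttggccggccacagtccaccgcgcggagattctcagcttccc
MCM3, chr6:52284693-52284992, minus strand: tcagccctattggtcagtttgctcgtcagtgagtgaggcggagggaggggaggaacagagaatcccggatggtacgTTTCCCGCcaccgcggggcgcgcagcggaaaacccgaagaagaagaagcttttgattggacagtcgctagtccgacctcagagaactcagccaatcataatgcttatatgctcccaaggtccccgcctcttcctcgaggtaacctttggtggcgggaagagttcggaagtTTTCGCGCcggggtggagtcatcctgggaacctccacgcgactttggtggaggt
MCM6, chr2:135876394-135876693, minus strand: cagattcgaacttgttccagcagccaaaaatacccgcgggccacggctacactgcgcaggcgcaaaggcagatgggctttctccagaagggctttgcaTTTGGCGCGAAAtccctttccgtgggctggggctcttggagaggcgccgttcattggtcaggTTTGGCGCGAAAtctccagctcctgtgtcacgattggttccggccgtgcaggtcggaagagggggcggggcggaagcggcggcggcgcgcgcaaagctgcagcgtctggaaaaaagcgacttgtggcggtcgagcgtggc
In MCM2 and MCM6 the capitals form runs of 12 bases in which a match on each strand overlaps, 1 in MCM2 and 2 in MCM6. Among the windows printed, all of which held a match, are genes that rose and genes that fell. Other genes had windows without a match: TK1, RFC1, RRM2 and FEN1, which fell, and ORC2, POLD1 and CCNE1, which rose. MCM4, MCM5 and CCNE2 were among the genes with no window. A shorter core (the same sites without their first T, which overlaps the longer letters) was found in 33 of the 42 genes (78.6%), against 24.7% of the genes tested and 13.0% of all windows. CCAAT, the box bound by NF-Y, was in a window of 24 of the 42 genes (57.1%, against 43.5% of the genes tested and 34.6% of windows). TTTGAA, the CHR element known from G2/M promoters, was in 2 of the 42 (4.8%, against 14.0% of the genes tested and 15.2% of windows). A match is a description of the letters and not a shown binding site.

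The microRNA that the ZIP hairpin targets, miR-378a-3p (chr5:149732867-149732888, plus strand, RefSeq GRCh38.p14), is printed to show the seed that its matches in the members pair with. Its seed, bases 2 to 8, is in capitals.
hsa-miR-378a-3p: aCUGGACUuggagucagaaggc
MIR378A had 0, 0, 0 and 0 counts in the untransduced, SCR and first ZIP libraries and 2 counts in the other ZIP library, so these libraries cannot check its level. The letters AGTCCAG (a match to the seed) or GTCCAGA (a match to bases 2 to 7 before an A) were searched in the longest annotated 3′ UTR of each gene. They were found in 3 of the 49 replication genes (6.1%), against 18.4% of 12073 protein-coding genes tested, whose UTRs were longer (median 1329 bases against 980). The density was 0.088 matches per kb in the replication genes and 0.115 in all. E2F2 and POLA2 had 2 matches each and RFC1 had 1. The matches are shown with their flanks because E2F2 and RFC1 are among the genes that changed most between the vectors.
E2F2, base 293 of its 3′ UTR: tggccaAGTCCAGggaaagg
E2F2, base 1852: tcttaaAGTCCAGcatgctc
RFC1, base 48: ctgaccAGTCCAGctggtct
POLA2, base 231: gctccgtGTCCAGAagtaag
POLA2, base 740: gacctatGTCCAGAgaaggc
E2F2 and RFC1 were lower in ZIP than in SCR, and POLA2 was higher. Background on microRNAs is that they lower their targets, so an antisense is made to raise them. These matches are letters only, and binding was not measured. Whether the matches bear on the changes of these genes was not tested.

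Library totals were 24406580 to 30925067 counts. Replicates differed little beyond counting noise, with a mean chi-square per gene of 1.53 to 1.95 within the vector groups against 49.3 to 86.2 between groups. Promyelocyte markers were high throughout (7 genes, summed level 24811.0 CPM, the counts of a gene scaled by library size, in untransduced cells, 12107.9 and 12112.2 with SCR and 23060.0 and 22412.6 with ZIP). All 9 monocyte and macrophage markers had counts, with a summed level of 34.0 CPM in untransduced cells, 238.4 and 237.7 with SCR and 70.6 and 70.3 with ZIP. Markers of T and NK cells summed to 12.7 to 23.3 CPM, of B cells to 1.44 to 4.38, of erythroid cells to 1.4 to 1.89 (HBA1, HBA2 and HBB at 0 in every library) and of epithelial cells and fibroblasts to 0.868 to 2.88. The SCR libraries therefore stood apart from the other groups in myeloid markers, and the part of this in the results below was not tested. PPARGC1B, the host gene of the microRNA, had 40.5 CPM in untransduced cells, 48.6 and 51.2 with SCR and 67.5 and 67.7 with ZIP.

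The replication genes split evenly between the antisense vector and its control. In ZIP against SCR, 14 of the 49 genes rose and 15 fell by edgeR's quasi-likelihood test at an adjusted p under 0.05, and 20 did not pass. Over all 14643 genes tested, 32.2% rose and 33.2% fell, so 65.4% passed in either direction, against 59.2% of the replication genes. These all-gene shares also stand beside the counts by role given below for this comparison. Of the 8020 protein-coding genes in the same range of mean level, 3485 rose, 2686 fell and 1849 did not pass. The replication genes thus rose and passed less often than genes of like level. The median log2 fold change was 0.00, as it was over all genes, against 0.05 over those 8020. The changes were small: the median absolute log2 fold change was 0.11, against 0.32 over all genes tested and 0.25 over the 8020 protein-coding genes in the same range of mean level. Only 5 of the 49 genes reached an absolute log2 fold change of 0.5 (E2F2, TK1, RFC1, RRM2 and CCNE2), all of them lower in ZIP. Of all genes tested 33.7% reached it, and 1686 of those 8020 genes did. Scaling to library totals gave 12 higher and 21 lower, and the median of the replication genes less that of all genes was 0.0 with either scaling.

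**Figure D1:**
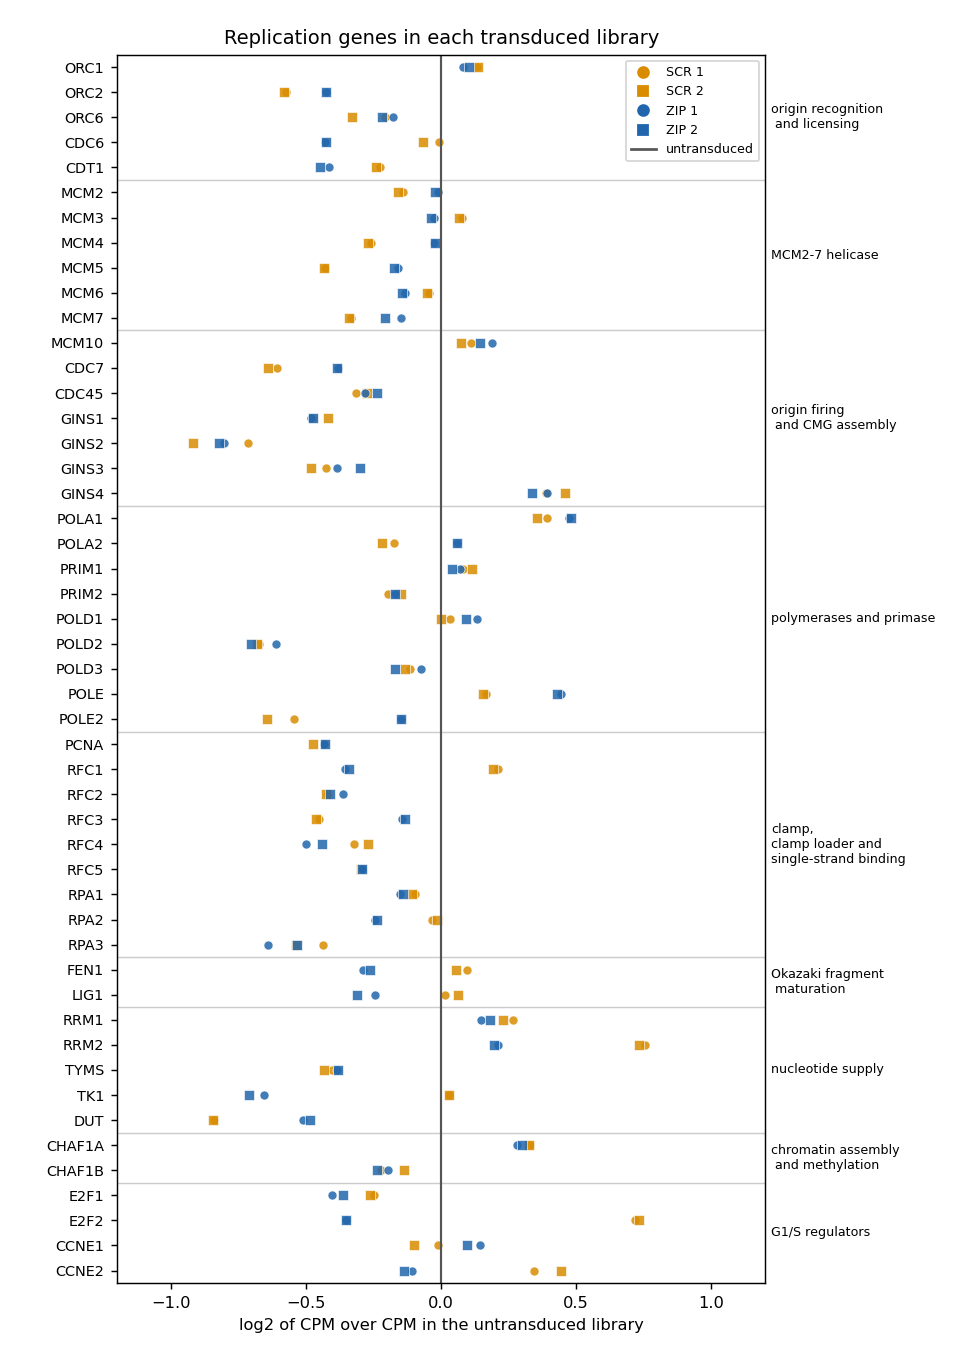
log2 of each gene's CPM divided by its level in the untransduced library, for the 49 replication genes in rows grouped by role, with 1 point per SCR and ZIP library and the untransduced level as the line at 0. Points left of the line lie below the untransduced library, and E2F2 and RRM2 show SCR points far to the right of their ZIP points.

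As a group, the plot of levels relative to the untransduced library shows most genes to the left of the line in both vector groups. The 49 genes together held 0.794% of the counts in untransduced cells, 0.77% and 0.76% with SCR and 0.738% and 0.733% with ZIP. Their summed level was 8304.2 CPM in untransduced cells, 7449.9 and 7378.4 with SCR and 7450.7 and 7396.3 with ZIP, so the sums of the vector groups overlapped. The SCR and ZIP libraries did not overlap in 38 of the 49 genes. The share of all genes without overlap was not computed, so this count is not read as a trait of these genes. By the test, which is another measure, 65.4% of all genes tested passed between these groups.

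The largest change between ZIP and SCR was in a G1/S regulator. E2F2, a transcription factor that activates S phase genes (chr1:23506430-23531220), had 23.0 CPM in untransduced cells, 37.8 and 38.2 with SCR, and 18.0 in each ZIP library. Both SCR libraries were high and both ZIP libraries low, with the untransduced library between. In ZIP against SCR its log2 fold change was -1.08 ± 0.06 (SE; adjusted p = 1.2e-12), a level 0.474 times that of SCR. The closely related activator E2F1 had 80.7 CPM in untransduced cells, 68.0 and 67.3 with SCR and 61.0 and 62.8 with ZIP. E2F1 fell by far less (log2 fold change -0.13 ± 0.04, adjusted p = 0.0043), and its call was lost in DESeq2 (adjusted p = 0.081).

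CCNE1 and CCNE2 encode cyclin E, the partner of CDK2 at the start of S phase, and they moved in opposite directions. CCNE2 was the lowest of the 49 genes per length of exon (2.3 to 3.44 CPM per kb). Its level was 11.1 CPM in untransduced cells, 14.1 and 15.1 with SCR and 10.3 and 10.1 with ZIP, and it fell in ZIP against SCR (-0.51 ± 0.08, adjusted p = 1.8e-05). Of its exon bases, 37.1% overlap other genes, INTS8 among them on the other strand. INTS8 had 76.6 and 79.3 CPM with SCR and 87.5 and 93.0 with ZIP. CCNE1 had 40.2 CPM in untransduced cells, 39.9 and 37.5 with SCR and 44.4 and 42.9 with ZIP, and it rose by 0.18 ± 0.05 (adjusted p = 0.0038). That call was lost without the second SCR library (adjusted p = 0.069) and without the first ZIP library (0.051).

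Genes of deoxynucleotide supply held 2 more of the 5 largest changes, and 3 of the 5 fell while 1 rose. TK1, the cytosolic thymidine kinase of S phase cells (chr17:78174075-78187233), had 78.5 CPM in untransduced cells, 80.0 and 80.1 with SCR and 49.8 and 48.0 with ZIP. The untransduced and SCR libraries lay within 78.5 to 80.1 CPM and the ZIP libraries well below. TK1 fell in ZIP against SCR (-0.71 ± 0.04, adjusted p = 1.4e-12) and against the untransduced library (-0.68 ± 0.05, adjusted p = 1.4e-11), and SCR against untransduced gave 0.03 ± 0.04 (adjusted p = 0.6).

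RRM2 encodes the small subunit of ribonucleotide reductase, which makes deoxynucleotides in S phase (chr2:10120698-10131419). It had 278.0 CPM in untransduced cells, 469.3 and 462.1 with SCR and 321.8 and 318.2 with ZIP. Here the SCR libraries were high and the untransduced library lowest. RRM2 fell in ZIP against SCR (-0.54 ± 0.03, adjusted p = 1.7e-13), and it was higher than untransduced in SCR (0.74 ± 0.03) and in ZIP (0.20 ± 0.03). Its exons overlap another gene on the same strand over 20.2% of their bases, and 3 pseudogenes carry its name. RRM1, the large subunit, had 234.0 CPM in untransduced cells, 281.4 and 273.9 with SCR and 259.2 and 265.2 with ZIP. RRM1 fell by 0.08 ± 0.03 on the log2 scale in ZIP against SCR (adjusted p = 0.013), a call lost without the first SCR library (0.14) and without the first ZIP library (0.098).

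DUT, the enzyme that removes dUTP, went the other way. It had 424.5 CPM in untransduced cells, 237.0 and 236.6 with SCR and 297.9 and 303.2 with ZIP, so SCR was lowest and the untransduced library far above both. DUT rose in ZIP against SCR (0.34 ± 0.03, adjusted p = 5.1e-10) and was lower than untransduced in SCR (-0.84 ± 0.03, adjusted p = 1.7e-16) and in ZIP (-0.50 ± 0.03, adjusted p = 4.1e-12). The SCR value was the largest fall among the 49 genes in that comparison. There are 8 pseudogenes named after DUT, and 14.5% of its exon bases overlap another gene, so its level is uncertain. TYMS, thymidylate synthase, had 424.2 CPM in untransduced cells, 320.3 and 313.7 with SCR and 324.9 and 325.9 with ZIP. It fell in both vector groups against untransduced, and ZIP against SCR gave 0.04 ± 0.03 (adjusted p = 0.21). Other genes overlap 46.6% of the exon bases of TYMS on the other strand (ENOSF1 and TYMSOS).

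**Figure D2:**
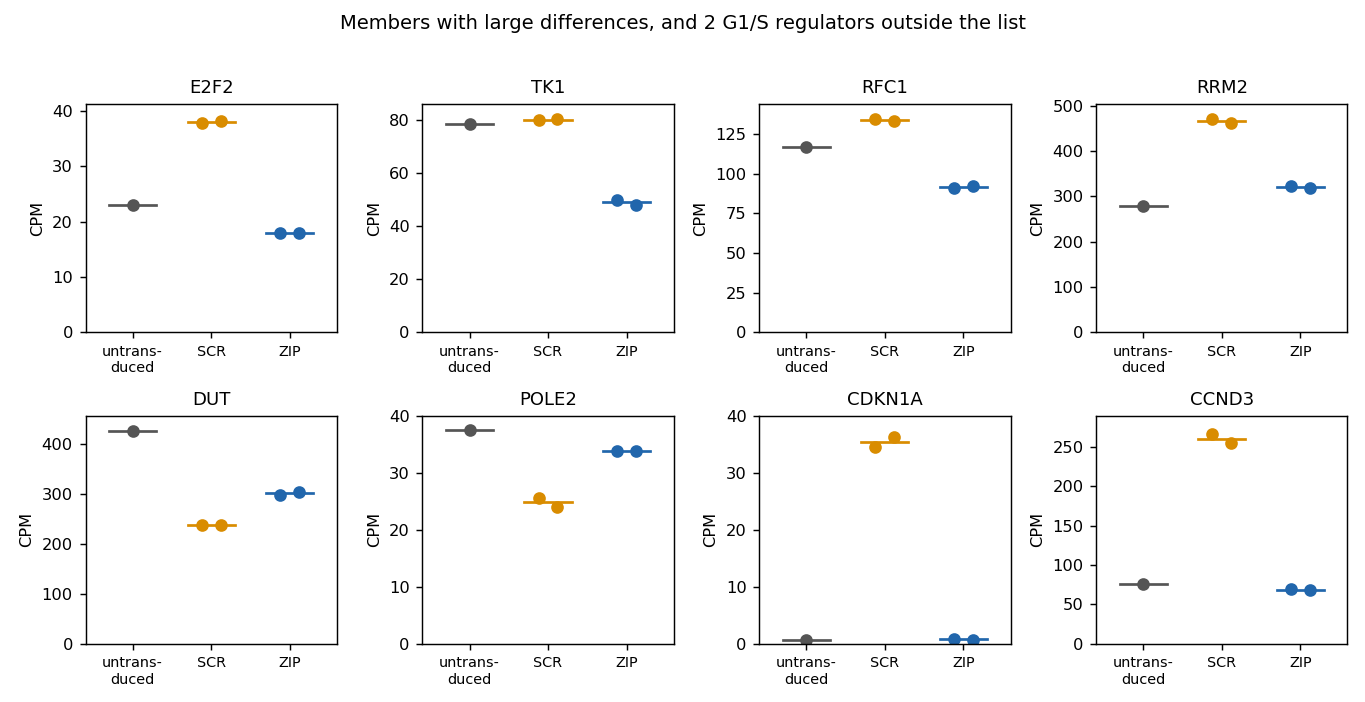
CPM in each of the 5 libraries for 6 replication genes with large changes and for CDKN1A and CCND3, 2 G1/S regulators outside the list, with 1 panel per gene on its own axis from 0, 1 point per library and a line at each group's mean. E2F2, TK1, RFC1 and RRM2 were lower in both ZIP libraries than in both SCR libraries, and POLE2 and DUT higher, and CDKN1A and CCND3 were high in SCR alone.

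Among clamp, clamp loader and single-strand binding genes, 1 of 9 rose in ZIP against SCR (RFC3) and 3 fell (RFC1, RFC4 and RPA2). Over all genes tested 32.2% rose and 33.2% fell. RFC1, the large subunit of the clamp loader (chr4:39287456-39366375), had 116.6 CPM in untransduced cells, 134.8 and 133.2 with SCR and 91.1 and 92.0 with ZIP. The ZIP libraries were lowest and the untransduced library lay between. RFC1 fell in ZIP against SCR (-0.55 ± 0.03, adjusted p = 1.0e-12). RFC3, a small subunit of the same loader, had 126.7 CPM in untransduced cells, 92.5 and 92.0 with SCR and 114.5 and 115.5 with ZIP, and it rose (0.32 ± 0.03, adjusted p = 7.4e-09). The 5 subunits of the loader therefore did not move together: RFC4 fell (-0.17 ± 0.04), and RFC2 (0.04 ± 0.03) and RFC5 (0.00 ± 0.03) did not pass.

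PCNA, the sliding clamp, had the highest level per length of the 49 genes (248.6 to 345.6 CPM per kb). It had 508.3 CPM in untransduced cells, 377.5 and 365.6 with SCR and 376.2 and 377.3 with ZIP. The vector groups overlapped and the untransduced library lay above all 4. ZIP against SCR gave 0.02 ± 0.03 (adjusted p = 0.5), while PCNA was lower than untransduced in SCR (-0.45 ± 0.03, adjusted p = 8.2e-12) and in ZIP (-0.43 ± 0.03, adjusted p = 3.4e-11). All 9 genes of the clamp, loader and RPA group were lower in ZIP than in the untransduced library. In SCR 7 of the 9 were, with RFC1 higher (0.20 ± 0.04) and RPA2 not passing (-0.02 ± 0.04). Over all genes tested, 29.7% were lower in ZIP and 32.2% in SCR. In DESeq2 the calls of RFC3 and RPA1 in ZIP and of RPA1 in SCR were lost.

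The RPA complex coats single-stranded DNA at the fork. RPA2 had 153.2 CPM in untransduced cells, 149.7 and 151.6 with SCR and 129.2 and 129.9 with ZIP, and it fell in ZIP against SCR (-0.22 ± 0.03, adjusted p = 9.2e-07). RPA1 (-0.04 ± 0.03) and RPA3 (-0.10 ± 0.05, adjusted p = 0.072) did not pass. RPA3 passed without the second SCR library (0.023), without the second ZIP library (0.025) and with the replicate number as a block (0.042). RPA3 was lower than untransduced in both vector groups (69.1 CPM against 51.0 and 47.6 with SCR and 44.3 and 47.7 with ZIP).

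Both genes that finish Okazaki fragments fell. FEN1, the flap endonuclease, had 90.8 CPM in untransduced cells, 97.1 and 94.4 with SCR and 74.3 and 75.6 with ZIP (-0.35 ± 0.03 in ZIP against SCR, adjusted p = 6.9e-09). LIG1, the ligase that seals the fragments, had 135.5 CPM in untransduced cells, 136.7 and 141.3 with SCR and 114.2 and 109.2 with ZIP (-0.31 ± 0.03, adjusted p = 1.9e-08). For both genes the ZIP libraries were lowest and SCR lay near the untransduced library. FEN1 shares 8.7% of its exon bases with FADS2 on the same strand and TMEM258 on the other. FADS2 had 13.1 CPM in untransduced cells, 270.8 and 261.9 with SCR and 1.27 and 0.661 with ZIP. The part of FADS2 reads in the FEN1 value was not tested.

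All 6 subunits of the MCM2-7 helicase passed in ZIP against SCR, 4 higher and 2 lower, although the complex contains each subunit in equal number. Over all genes tested 65.4% passed. MCM4 had 632.9 CPM in untransduced cells, 528.0 and 524.4 with SCR and 622.0 and 622.4 with ZIP (0.24 ± 0.02, adjusted p = 8.8e-09). MCM5 had 389.9, then 289.5 and 288.9, then 349.0 and 345.0 CPM in the same order (0.26 ± 0.03, adjusted p = 2e-08). In both genes SCR was lowest and no libraries of the groups overlapped. MCM7 had 645.4 CPM in untransduced cells, 511.6 and 509.7 with SCR and 582.4 and 559.3 with ZIP (0.16 ± 0.03). MCM2 had 437.5 CPM in untransduced cells, 397.1 and 391.2 with SCR and 434.1 and 430.4 with ZIP (0.13 ± 0.02).

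MCM3 and MCM6 showed the other order, with ZIP below SCR. MCM3 had 469.6 CPM in untransduced cells, 495.3 and 491.4 with SCR and 461.0 and 457.5 with ZIP (-0.10 ± 0.02, adjusted p = 0.00087). MCM6 had 436.3 CPM in untransduced cells, 422.5 and 421.1 with SCR and 397.8 and 394.5 with ZIP (-0.09 ± 0.02, adjusted p = 0.0034). The differences of these subunits were at most 0.26 on the log2 scale. In SCR against untransduced MCM2, MCM4, MCM5 and MCM7 fell (-0.15 to -0.43), MCM3 rose (0.07 ± 0.03, adjusted p = 0.035) and MCM6 gave -0.05 ± 0.03. The MCM3 call was lost in DESeq2 (0.082) and without the first SCR library (0.12), and that of MCM2 with library totals (0.25). In ZIP against untransduced MCM5, MCM6 and MCM7 fell (-0.14 to -0.18) and the values of MCM2, MCM3 and MCM4 were -0.02 to -0.03. Summed over the 6 subunits, the level was 3011.6 CPM in untransduced cells, 2644.0 and 2626.8 with SCR and 2846.4 and 2809.1 with ZIP.

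**Figure D3:**
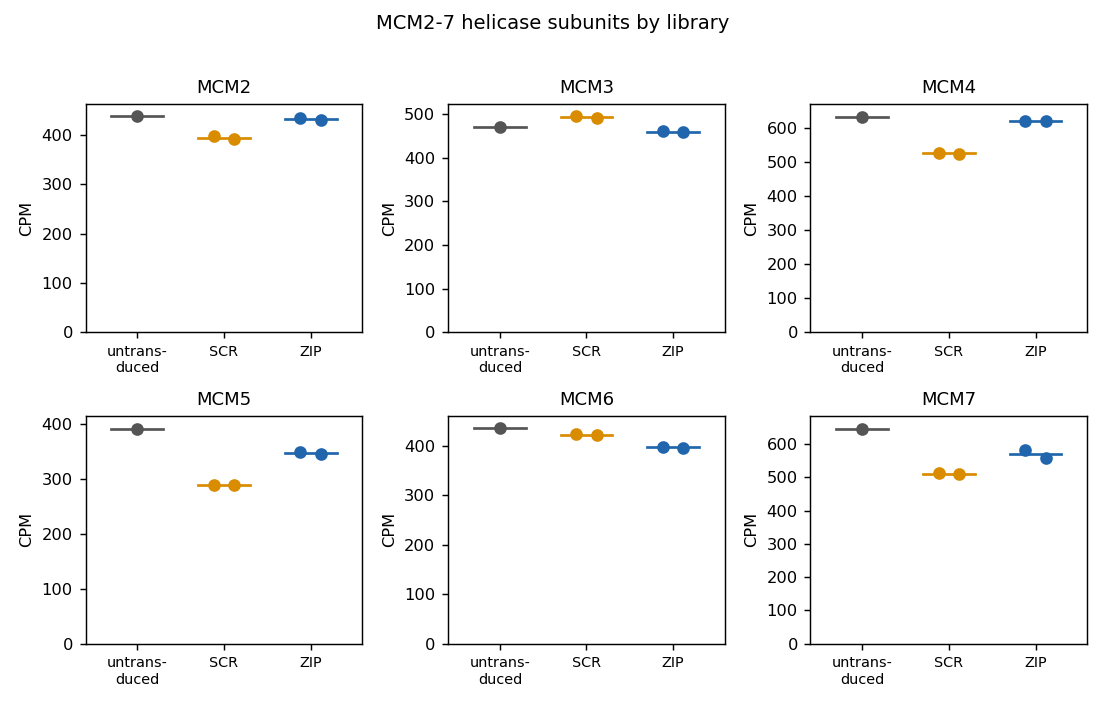
CPM of the 6 MCM2-7 helicase subunits in each of the 5 libraries, 1 panel per subunit with its own axis from 0, 1 point per library and a line at each group's mean. In MCM2, MCM4, MCM5 and MCM7 both ZIP libraries lie above both SCR libraries, and in MCM3 and MCM6 both lie below.

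The genes that load this helicase were mixed. CDC6, the loading ATPase, fell in ZIP against SCR (97.6 CPM in untransduced cells, 97.0 and 93.1 with SCR and 72.5 and 72.6 with ZIP, -0.39 ± 0.03, adjusted p = 2.3e-09). Its partner CDT1 was lower in each comparison (141.5 CPM, then 120.8 and 119.6 with SCR and 106.1 and 103.6 with ZIP, -0.19 ± 0.03, adjusted p = 6.6e-06). In both, ZIP was lowest. ORC2, a subunit of the origin recognition complex, had 80.4 CPM in untransduced cells, 54.0 and 53.7 with SCR and 59.8 and 59.9 with ZIP, and it rose in ZIP against SCR (0.15 ± 0.04, adjusted p = 0.0017). ORC1 (-0.04 ± 0.03) and ORC6 (0.07 ± 0.04) did not pass, though ORC6 passed without the first SCR library (adjusted p = 0.025). ORC2 fell by 0.58 ± 0.05 on the log2 scale in SCR against untransduced and ORC6 by 0.27 ± 0.05, while ORC1 rose by 0.13 ± 0.04, a call lost in DESeq2 (0.10).

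Of the 7 genes of origin firing, 1 passed in ZIP against SCR. CDC7, the catalytic subunit of the DDK kinase that fires origins, had 63.2 CPM in untransduced cells, 41.5 and 40.5 with SCR and 48.5 and 48.4 with ZIP, and it rose (0.24 ± 0.05, adjusted p = 9.1e-05). The GINS complex did not pass in any of its 4 subunits (-0.05 to 0.11). Against the untransduced library its subunits differed in direction. GINS2 had 43.7 CPM in untransduced cells, 26.6 and 23.1 with SCR and 25.0 and 24.7 with ZIP, and it fell by 0.82 ± 0.07 on the log2 scale in SCR and by 0.81 ± 0.07 in ZIP. GINS1 and GINS3 also fell in both vector groups (-0.35 to -0.48). GINS4 instead rose, with 35.7 CPM in untransduced cells, 46.7 and 49.0 with SCR and 46.8 and 45.1 with ZIP (0.42 ± 0.06 in SCR and 0.37 ± 0.06 in ZIP). In GINS4, 23.6% of exon bases overlap another gene. CDC45, the other partner of the helicase, fell in both vector groups (-0.29 ± 0.04 in SCR and -0.26 ± 0.04 in ZIP). MCM10, which helps to activate the helicase, passed only in ZIP against untransduced (0.17 ± 0.06, adjusted p = 0.023), a call lost without the first ZIP library (0.091) and in DESeq2 (0.19).

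The polymerase genes rose or did not pass in ZIP against SCR: 5 of 9 rose and none fell. Over all genes tested 32.2% rose and 33.2% fell. POLE2, an accessory subunit of polymerase epsilon, the leading strand enzyme (chr14:49643555-49688422), had 37.5 CPM in untransduced cells, 25.7 and 24.0 with SCR and 33.8 in each ZIP library. SCR was low and ZIP near the untransduced library. It rose in ZIP against SCR by 0.44 ± 0.06 (adjusted p = 7.0e-07), the largest rise of the 49 genes. POLE, the catalytic subunit, had 172.6 CPM in untransduced cells, 193.7 and 192.0 with SCR and 234.5 and 232.4 with ZIP, and it rose by 0.28 ± 0.03 (adjusted p = 2.3e-08). The untransduced library was lowest of the 5 for POLE and highest for POLE2.

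The remaining epsilon subunits are not among the 49 genes and are given because they were among the 4 largest changes of 32 further origin and fork factors. POLE3 had 401.4 CPM in untransduced cells, 237.9 and 236.2 with SCR and 328.2 and 331.6 with ZIP (0.48 ± 0.03 in ZIP against SCR, adjusted p = 2.5e-12). POLE4 had 41.0 CPM in untransduced cells, 31.8 and 28.5 with SCR and 42.3 and 40.5 with ZIP (0.46 ± 0.06, adjusted p = 4.1e-07). All 4 epsilon subunits were therefore higher in ZIP than in SCR, but POLE3 and POLE4 were named for the size of their change.

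Polymerase alpha, which starts each new strand with primase, rose in both of its polymerase subunits. POLA2 had 72.2 CPM in untransduced cells, 64.0 and 62.1 with SCR and 75.2 and 75.1 with ZIP (0.25 ± 0.04, adjusted p = 2.8e-06), with 35.1% of its exon bases overlapped by other genes. POLA1, the catalytic subunit, had 74.2 CPM in untransduced cells, 97.3 and 94.9 with SCR and 103.1 and 103.4 with ZIP (0.10 ± 0.03, adjusted p = 0.005). The POLA1 call was lost in DESeq2 (0.073), with library totals (0.21) and without the second SCR library (0.092). PRIM1 (-0.04 ± 0.04) and PRIM2 (0.00 ± 0.05), the primase subunits, did not pass. PRIM1 was the only gene of the 49 that passed in none of the 3 comparisons as mainly fitted. With library totals PRIM1 did pass in edgeR, in ZIP against SCR (-0.102, adjusted p = 0.019) and in SCR against untransduced (0.207). Other genes overlap 21.6% of its exon bases, NACA among them on the same strand. NACA had 1033.6 CPM in untransduced cells, 937.0 and 928.1 with SCR and 796.8 and 817.5 with ZIP.

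In polymerase delta, the lagging strand enzyme, POLD1 rose by 0.10 ± 0.03 (211.2 CPM in untransduced cells, 215.9 and 211.2 with SCR and 231.3 and 224.9 with ZIP, adjusted p = 0.0057). That call was lost with library totals (0.27) and without the first ZIP library (0.079). POLD2 had 334.2 CPM in untransduced cells, 209.4 and 208.1 with SCR and 218.8 and 205.0 with ZIP. The vector groups overlapped far below the untransduced library, and POLD2 fell in SCR (-0.68 ± 0.04, adjusted p = 1.4e-13) and in ZIP (-0.66 ± 0.04, adjusted p = 4.6e-13). POLD3 showed a small difference from untransduced (-0.12 ± 0.05 in each vector group), which missed the threshold in several alternatives (adjusted p up to 0.81). POLD4, the remaining delta subunit, is one of the other origin and fork factors. It had 6.22 CPM in untransduced cells, 4.77 and 5.52 with SCR and 4.83 and 3.72 with ZIP. In ZIP against SCR it did not pass (-0.25 ± 0.15, adjusted p = 0.15).

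The histone chaperone CAF-1, which places histones on new DNA, did not pass in ZIP against SCR in CHAF1A (-0.04 ± 0.03) or CHAF1B (-0.03 ± 0.05). CHAF1A was higher than untransduced (99.1 CPM) in SCR (124.5 and 124.3 CPM, 0.33 ± 0.04) and in ZIP (120.3 and 121.9 CPM, 0.29 ± 0.04). CHAF1B was lower (41.1 CPM against 35.2 and 37.4 with SCR and 35.9 and 34.9 with ZIP), and its calls were lost in DESeq2 (adjusted p = 0.20 in SCR and 0.12 in ZIP).

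**Figure D4:**
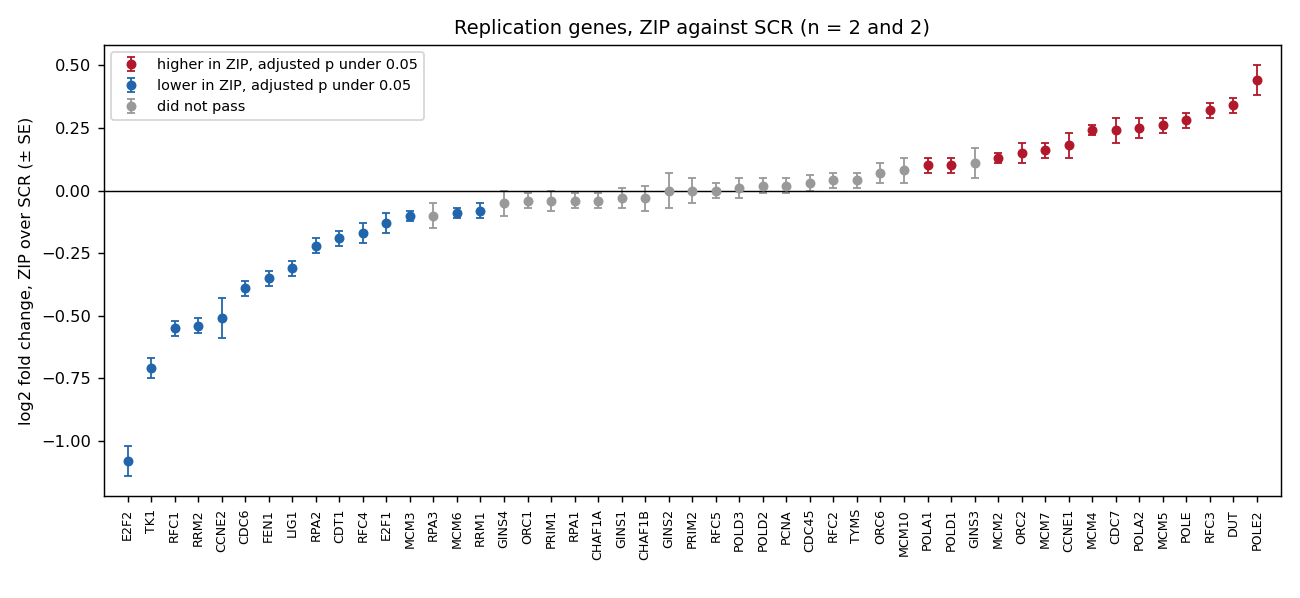
log2 fold change in ZIP against SCR for the 49 replication genes, ordered from lowest to highest, with error bars of 1 standard error and colours for genes higher, lower or not passing at an adjusted p under 0.05. E2F2 lies farthest left at -1.08 and POLE2 farthest right at 0.44, and the 20 genes that did not pass lie near 0.

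Most replication genes were lower in the vector libraries than in the untransduced library. In SCR against untransduced, 11 of the 49 genes rose and 28 fell, when 32.7% of the 15832 genes tested rose and 32.2% fell. In all 79.6% of the replication genes passed, against a background of 64.9%. Of the 8020 protein-coding genes in the same range of mean level, 2884 rose, 3484 fell and 1652 did not pass. Genes at these levels thus passed more often than all genes tested. The median log2 fold change was -0.18, against 0.02 over all genes and -0.05 over those 8020. In ZIP against untransduced, 9 rose and 32 fell, when 28.5% of all genes rose and 29.7% fell (83.7% passed, background 58.2%). The median was -0.20 against 0.00. Of the 8020, 2937 rose, 3013 fell and 2070 did not pass, with a median of -0.01. The 2 comparisons share the untransduced library, and a value of that library that is high or low enters both.

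Scaled to library totals, SCR against untransduced gave 18 genes higher and 22 lower and ZIP against untransduced 11 and 30. With that scaling the median of all genes moved from 0.016 to 0.126 in SCR against untransduced, and the median of the replication genes less that of all genes was -0.19 with either. Absolute log2 fold changes of 0.5 were reached by 8 of the 49 genes in SCR against untransduced (background 48.5%) and by 4 in ZIP against untransduced (background 40.9%). Of the 8020 protein-coding genes in the same range of mean level, 2614 and 1803 reached 0.5. The 8 were ORC2, CDC7, GINS2, POLD2, POLE2, DUT, E2F2 and RRM2, and the last pair were the ones higher in SCR. The 4 were GINS2, POLD2, RPA3 and TK1, all lower in ZIP, and DUT at -0.50 lay just short.

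Across the comparisons, 24 of the 49 genes were lower in both vector groups than in the untransduced library, and 7 were higher in both (ORC1, GINS4, CHAF1A, POLA1, POLE, RRM1 and RRM2). The joint shares over all genes were not computed, and both counts rest on the same untransduced library. Over all genes tested 32.2% fell and 32.7% rose in SCR, and 29.7% fell and 28.5% rose in ZIP. These are shares of single comparisons and give no background for the joint counts or for the patterns listed here. Of the 24, 15 did not pass in ZIP against SCR: ORC6, CDC45, GINS1, GINS2, GINS3, PRIM2, POLD2, POLD3, PCNA, RFC2, RFC5, RPA1, RPA3, TYMS and CHAF1B. Another 6 were lower in ZIP than in both SCR and untransduced while SCR did not pass (CDC6, MCM6, RPA2, FEN1, LIG1 and TK1). MCM2, MCM4, POLA2 and POLE2 were lower in SCR than in untransduced and higher in ZIP than in SCR, with ZIP against untransduced not passing. ORC2, MCM5, MCM7, CDC7, RFC3 and DUT also rose from SCR to ZIP and remained below untransduced. CDT1, RFC4 and E2F1 were lower in all 3 comparisons. E2F2 and RFC1 were above untransduced in SCR and below it in ZIP.

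Some calls against the single untransduced library were lost under an alternative. In SCR, those of ORC1, MCM2, MCM3, POLA2, PRIM2, POLD3, RPA1, CHAF1B and CCNE2 were lost in at least 1, those of MCM2 and POLA2 with library totals alone. In ZIP, those of ORC1, ORC6, MCM10, PRIM2, POLD1, POLD3, RFC3, RPA1 and CHAF1B were. Leaving out the second SCR library lost the calls of POLD3 (adjusted p = 0.12) and RPA1 (0.12) in SCR, and leaving out the first lost those of MCM3, PRIM2, POLD3, RPA1 and CHAF1B (0.055 to 0.12). In ZIP, leaving out the first ZIP library lost the calls of MCM10 (0.091), PRIM2 (0.064) and POLD1 (0.069), and leaving out the second lost those of ORC1 (0.07), PRIM2 (0.053) and POLD3 (0.26, with the log2 fold change at -0.064 in place of -0.12). Leaving out either SCR library lost those of ORC1 and POLD3 (0.054 to 0.061).

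Genes with and without the promoter letters overlapped in their changes. In ZIP against SCR the 21 genes with an E2F match had a median log2 fold change of 0.04 (range -1.08 to 0.44) and the 21 without had -0.03 (range -0.71 to 0.18). In SCR against untransduced the medians were -0.25 with and -0.05 without, and in ZIP against untransduced -0.35 and -0.20. The ranges of genes with and without a match overlapped in each comparison.

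**Figure D5:**
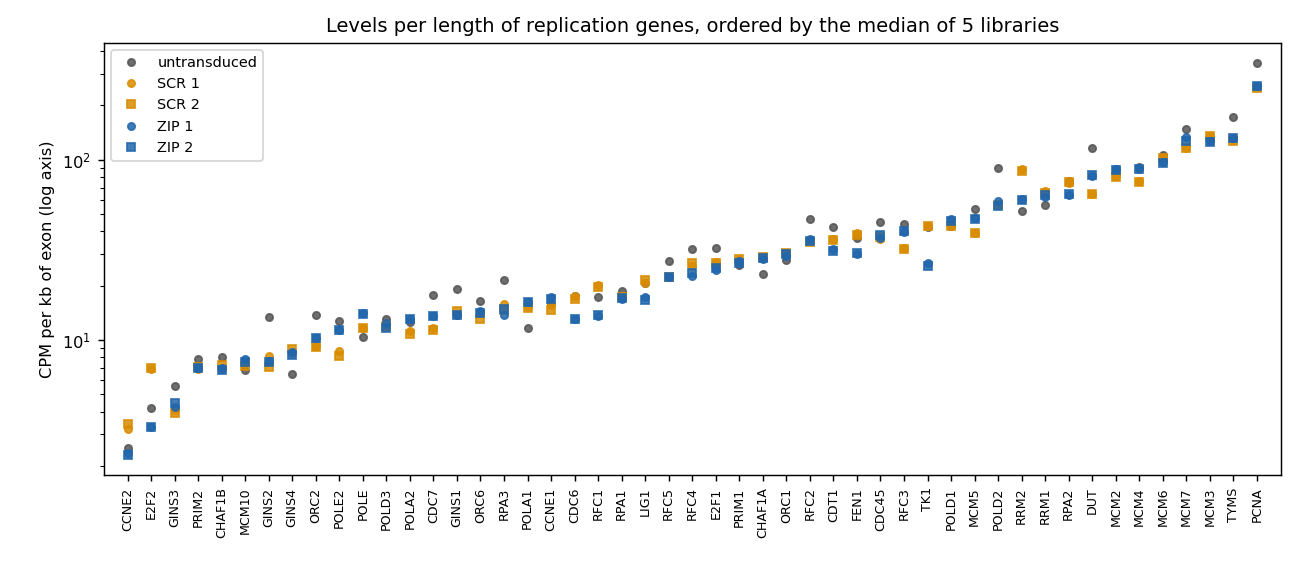
CPM per kb of exon on a log axis for the 49 replication genes, ordered from low to high by the median of the 5 libraries, with 1 point per library in the colour of its group. CCNE2 lies lowest at the left and PCNA highest at the right.

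Per length of exon, the plot of levels shows PCNA highest, followed by some of the nucleotide and helicase genes. Not every gene of these roles was high, and POLD2 (90.4 CPM per kb in untransduced cells) was above MCM5 (53.1) and TK1 (42.2). The length joins all annotated exons of a gene, so the order depends on the annotation. In the untransduced library PCNA had 345.6 CPM per kb, TYMS 171.7, MCM7 147.2, MCM3 128.7, DUT 115.6 and MCM6 106.0. Neighbours in this order changed places between groups: in SCR, MCM3 (135.7 and 134.6) was above TYMS (129.7 and 127.0) and MCM7 (116.7 and 116.2). At the other end stood CCNE2 (2.3 to 3.44 CPM per kb), E2F2 (3.29 to 7), GINS3 (3.96 to 5.53), GINS4 (6.52 to 8.95), MCM10 (6.86 to 7.81), PRIM2 (6.87 to 7.89) and CHAF1B (6.82 to 8.03). Among these, GINS4, MCM10, PRIM2 and CHAF1B overlapped in level. In SCR, E2F2 (6.93 and 7.0) reached the level of CHAF1B (6.88 and 7.3), and in ZIP it was less than that of GINS3 (4.24 and 4.49).

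Lists of related genes show what moved around the replication genes. For all lists below, the shares over all genes tested were 32.2% higher and 33.2% lower in ZIP against SCR. They were 32.7% and 32.2% in SCR against untransduced, and 28.5% and 29.7% in ZIP against untransduced. Of 32 other origin and fork factors, 13 rose and 8 fell in ZIP against SCR (median log2 fold change 0.03). CLSPN, the checkpoint adaptor claspin, had 22.6 CPM in untransduced cells, 68.2 and 69.2 with SCR and 46.0 and 49.9 with ZIP (-0.52 ± 0.04). MCMBP, which binds MCM proteins, had 127.9 CPM in untransduced cells, 211.5 and 208.0 with SCR and 149.3 and 150.1 with ZIP (-0.49 ± 0.03). In both, SCR was highest.

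Of 26 other nucleotide synthesis genes, 15 rose and 6 fell in ZIP against SCR (median 0.23). The largest changes were a fall in MTHFD2, a mitochondrial folate enzyme (291.2 CPM in untransduced cells, 516.4 and 504.2 with SCR and 254.1 and 254.6 with ZIP, -1.0 ± 0.03), and in the nucleoside kinases TK2 (-0.71 ± 0.08) and DCK (-0.67 ± 0.03). IMPDH1, an enzyme of guanine nucleotide synthesis, rose (160.2 CPM in untransduced cells, 98.9 and 95.1 with SCR and 154.3 and 151.3 with ZIP, 0.66 ± 0.03).

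Of 24 other E2F, RB and G1/S regulators, 9 rose and 8 fell in ZIP against SCR (median -0.03). CCND3, a D cyclin, had 75.3 CPM in untransduced cells, 266.1 and 254.5 with SCR and 69.0 and 68.6 with ZIP (-1.92 ± 0.03). E2F7, a repressor E2F, had 2.09 CPM in untransduced cells, 12.2 and 15.6 with SCR and 4.44 and 5.33 with ZIP, and it fell (-1.52 ± 0.13). MYBL1 fell too (-1.36 ± 0.20), and TFDP2, a dimer partner of E2F proteins, rose (0.67 ± 0.03).

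Inhibitors of cyclin-dependent kinases, which hold cells in G1, were a list of 7 genes. In SCR against untransduced 5 rose and none fell (median 0.88), and in ZIP against SCR none rose and 5 fell (median -0.97). In ZIP against untransduced 1 of the 7 passed, CDKN1B (-0.56 ± 0.05). CDKN1A, which encodes p21, had 0.667 CPM in untransduced cells, 34.6 and 36.4 with SCR and 0.882 and 0.703 with ZIP. Its log2 fold change in ZIP against SCR was -5.46 ± 0.12. CDKN1B, which encodes p27, had 59.6 CPM in untransduced cells, 79.9 and 79.0 with SCR and 40.1 and 41.0 with ZIP (-0.97 ± 0.04). CDKN2B (-1.75 ± 0.20) and CDKN2D (-1.38 ± 0.09), inhibitors of CDK4 and CDK6, fell in ZIP against SCR as well. In SCR against untransduced, where 5 of the inhibitors rose, 28 of the replication genes fell and 11 rose. In ZIP against untransduced, where none of the inhibitors rose, 32 of the replication genes fell and 9 rose. Whether the 2 lists are linked was not tested.

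Genes of G2/M and mitosis are set beside the replication genes as the other main group of cell cycle genes. In SCR against untransduced 18 of 25 rose and 3 fell (median 0.46), when 32.7% of all genes tested rose and 32.2% fell. In ZIP against SCR 1 rose and 19 fell (median -0.24), when 32.2% of all genes tested rose and 33.2% fell. Their summed level was 2988.7 CPM in untransduced cells, 4614.3 and 4630.9 with SCR and 3943.2 and 3981.1 with ZIP. The difference between these 2 lists was not tested. HMMR, a spindle protein, had 77.7 CPM in untransduced cells, 182.6 and 179.6 with SCR and 111.7 and 106.6 with ZIP (-0.73 ± 0.03 in ZIP against SCR). PTTG1 (-0.65 ± 0.03), NDC80 (-0.58 ± 0.03) and NUSAP1 (-0.49 ± 0.03) also fell.

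Of 23 replication checkpoint and fork repair genes, 7 rose and 9 fell in ZIP against SCR (median 0.04). ATR, the kinase that answers stalled forks, had 70.0 CPM in untransduced cells, 67.5 and 66.6 with SCR and 113.3 and 115.8 with ZIP, and it rose (0.77 ± 0.03). BRCA2 rose (0.42 ± 0.03), and BARD1 (-0.53 ± 0.05) and BLM (-0.42 ± 0.03) fell. Of 10 other chromatin assembly genes, 5 rose and 2 fell (median 0.06), among them the histone chaperones ASF1A (0.29 ± 0.04) and ASF1B (-0.40 ± 0.04), which moved in opposite directions. HAT1, a histone acetyltransferase, fell (-0.31 ± 0.03), and RBBP7, a histone-binding protein, rose (0.16 ± 0.03).

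The mean standardised log2 level of the 49 genes was 0.64 in untransduced cells, -0.07 and -0.14 with SCR and -0.17 and -0.26 with ZIP. The genes followed this mean to different degrees over the 5 libraries: Pearson's r was 0.98 for GINS1, GINS2, POLD2 and RFC5 and -0.98 for POLA1, and 0.00 for E2F2 and MCM3. Outside the lists, the genes most like this mean over the same 5 libraries were TMEM258 (r = 0.9993), GOLGA7 (0.9993), TPI1 (0.999), RGS14 (0.9987) and TOMM7 (0.9986). TMEM258 had 35.2 CPM in untransduced cells, 21.8 and 20.7 with SCR and 19.9 and 19.1 with ZIP. These correlations rest on 5 libraries in 3 groups and describe a pattern between groups. TMEM258 overlaps exons of FEN1 on the other strand, and FEN1 itself had r = 0.39 with the mean.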

How the data were processed

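RNA of 5 HL60 libraries was measured. The deposited counts per gene are the authors' own and were taken as raw because they are whole numbers whose totals differ between libraries. Per the submitters' processing notes, Bowtie2 and featureCounts were used. The design text of the series names other tools (TopHat 2, Cufflinks and HTSeq, after CASAVA 1.8.2) and a small RNA library kit. Which of these made the counts, the genome build, the annotation and the strand setting are not stated in the labels used. Overlapping and antisense genes and genes with pseudogenes are therefore uncertain. Over 10% of exon bases were overlapped in 10 members, MCM2 (23.6%) among them. Pseudogenes were named after 9 members, with 3 each for PCNA and RPA2. Samples were grouped by the treatment labels. Of the 51055 gene identifiers, 44305 had a symbol in GENCODE 29 (GRCh38), which also gave gene positions, exon lengths and UTRs. There were 0 columns of other samples.

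Counts were tested in R 4.3.3 with edgeR 4.0.16 (filterByExpr with a minimum count of 10 and a minimum total of 15, TMM scaling, quasi-likelihood test, Benjamini-Hochberg adjustment over all genes tested, threshold 0.05). ZIP against SCR was fitted on its 4 libraries. Comparisons with the single untransduced library used all 5, so that library is assumed to vary like the others. SE is the absolute log2 fold change over the square root of the F statistic. CPM was scaled by TMM. The test was checked on simulated counts. Alternatives were DESeq2 1.42.0, DESeq2's size factors, library totals, no filter, a replicate block, other sets of libraries in the fit, and leaving out each replicate. Named genes were all members, the 4 largest passing changes of each other pathway list in ZIP against SCR, the microRNA and its host gene, and the 5 genes most like the members' mean. Genes that overlap a member's exons, POLD4, and marker genes at 0, were named after their values were seen. The members and lists were chosen with earlier results of these data known.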

Additional observations from a re-analysis of the deposited data

How the results depend on the processing

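The alternatives recomputed 1372 log2 fold changes of the 49 genes: 1269 kept their direction and their side of the threshold, 55 no longer passed, 20 came to pass and 28 changed sign. Leaving out each replicate gave 12 to 15 genes higher and 14 to 16 lower in ZIP against SCR (14 and 15 with all), 10 to 12 and 24 to 28 in SCR against untransduced (11 and 28), and 7 to 9 and 30 to 31 in ZIP against untransduced (9 and 32). DESeq2 gave 13 and 14, 8 and 24, and 7 and 26. Library totals gave 18 genes higher in SCR against untransduced in place of 11, with the shift of all genes given above. With that scaling ORC1, GINS4, PRIM1, RPA1, RPA3 and CHAF1A came to pass as lower in ZIP against SCR. MCM10, PRIM1, POLD1, FEN1, LIG1 and TK1 came to pass as higher in SCR against untransduced. With the replicate number as a block, ZIP against SCR gave 14 higher and 16 lower. The deviations of libraries with the same number had a correlation of 0.016. Replicates differed little beyond counting noise, so this value cannot tell if the numbers pair the samples. The shorter E2F core was in 33 promoters in place of 21.

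The 28 sign changes were of values near 0. In ZIP against SCR with library totals they were CDC45 -0.028, GINS2 -0.056, PRIM2 -0.055, POLD2 -0.036, POLD3 -0.052, PCNA -0.039, RFC2 -0.024, RFC5 -0.057 and TYMS -0.021. The median of the 49 genes also moved with library totals, from 0.003 to -0.056. Leaving out 1 library at a time gave ranges that crossed 0 for GINS2 (-0.097 to 0.112), PRIM2 (-0.015 to 0.027), POLD2 (-0.028 to 0.078), POLD3 (-0.048 to 0.061), PCNA (-0.003 to 0.048), RFC5 (-0.00048 to 0.011) and CHAF1B (-0.071 to 0.008). The replicate block gave GINS2 -0.001. In SCR against untransduced with library totals they were CDC6 0.072, MCM6 0.061, RPA1 0.006, RPA2 0.086 and CCNE1 0.055, and leaving out 1 library gave CDC6 -0.066 to 0.00035. In ZIP against untransduced with library totals they were MCM2 0.034, MCM3 0.019 and MCM4 0.026. Of these, 26 passed in neither setting. RPA1 had passed before (-0.103), and RPA2 passed only with library totals (adjusted p = 0.042). The cause was not tested, apart from the scaling itself.

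With 2 residual degrees of freedom and 1 untransduced library, differences of about 0.1 on the log2 scale are near what the spread between libraries can show.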
